A study of Homo sapiens with 12 samples.

Results

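The miR-183 cluster encodes 3 main mature miRNAs, hsa-miR-183-5p, hsa-miR-96-5p and hsa-miR-182-5p, which were followed by name through 12 small RNA libraries. They are 3 of the 1277 mature miRNAs left after repeated lines of the count table had been collapsed, and all 3 are among the 310 that passed the filter on low counts. Each name stands on 1 line of the table. The libraries come from DROSHA knockout cells of HCT116, a line from a human colorectal carcinoma, and every group received 4.5 µg of the plasmid pXC-NLS-DG4. Cells further received a pCK plasmid that coded for DROSHA without its belt (belt deletion), for the DROSHA mutant m4, or for wild-type DROSHA, or that was empty. Each of the 4 groups has 3 libraries, numbered as repeats. The labels state neither what is altered in m4, nor what pXC-NLS-DG4 codes for, nor whether the knockout line is 1 clone, nor whether repeats are separate cultures, so the p-values measure the spread between these libraries. DROSHA mRNA is not a feature of a miRNA table, so neither the knockout nor the plasmids could be checked through it.

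DROSHA is the nuclear RNase III enzyme that, with its partner DGCR8, cuts hairpins out of primary miRNA transcripts. DICER then cuts the released hairpin, and one arm is kept as the mature miRNA in an Argonaute protein, which it guides to target mRNAs mainly through its seed, bases 2 to 8. The miR-183 cluster is one polycistronic transcript, conserved among vertebrates and abundant in sensory organs such as the retina and the inner ear, where seed mutations of miR-96 cause hereditary hearing loss. In many carcinomas, colorectal ones included, its miRNAs are raised, and FOXO transcription factors are known targets.

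The sequences are shown because the 3 miRNAs are close relatives in sequence, while their counts behaved differently. They are the mature 5p sequences from RefSeq (GRCh38.p14), written 5′ to 3′, with the seed in capitals.
miR-183-5p: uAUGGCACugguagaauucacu
miR-96-5p: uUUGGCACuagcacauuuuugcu
miR-182-5p: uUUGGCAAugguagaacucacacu

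No seed is shared by any pair of them. Counted from 1 at the 5′ end, miR-96-5p and miR-182-5p differ within their first 8 bases only by C8A, and miR-96-5p and miR-183-5p differ only by U2A. miR-183-5p and miR-182-5p differ there by A2U and C8A. Aligned from the 5′ end without gaps, miR-183-5p matched miR-182-5p at 18 of 22 bases, whereas miR-96-5p matched miR-182-5p at 12 of 23 and miR-183-5p at 13 of 22. The divergence of miR-96-5p lies in its 3′ part. Reads of the 3 miRNAs can therefore be told apart. miR-1271-5p, encoded on chromosome 5, has the same seed as miR-96-5p but had only 2 reads in all 12 libraries together.

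All 3 hairpins lie on the minus strand of chromosome 7 (RefSeq, GRCh38.p14; the submitters' processing notes name hg38). MIR183 lies at chr7:129774905-129775014, MIR96 at chr7:129774692-129774769 and MIR182 at chr7:129770383-129770492. In the direction of transcription MIR183 comes first, MIR96 follows 135 bases later, and MIR182 follows after another 4199 bases. No other GENCODE 29 gene overlaps this stretch of 4632 bases, and the nearest protein-coding genes are NRF1, 13300 bases away, and UBE2H, 55717 bases away. The hairpins of MIR96 and MIR182 are shown because the compared counts arise from them by DROSHA cleavage. The hairpin of MIR183 is not shown because the reference sequences used did not include it. The mature 5p arm and then the 3p arm are in capitals.
MIR96: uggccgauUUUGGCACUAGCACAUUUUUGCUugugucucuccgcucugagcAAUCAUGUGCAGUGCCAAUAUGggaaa
MIR182: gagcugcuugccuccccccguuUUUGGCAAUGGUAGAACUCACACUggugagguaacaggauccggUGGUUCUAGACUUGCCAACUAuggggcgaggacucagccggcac

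In both hairpins 20 bases separate the arms. Their minimum free energies predicted with RNAfold were close for their size, -34.8 kcal/mol for the 78 bases of MIR96 and -47.6 kcal/mol for the 110 bases of MIR182, or -0.45 and -0.43 kcal/mol for each base.

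Collapsed library totals ran from 101886 to 332081 reads, with 649 to 800 mature miRNAs detected. Because DROSHA acts on most miRNAs at once, levels are scaled reads: counts divided by a size factor taken from 5 features that mature without DROSHA (miR-1226, miR-484, miR-320, miR-1224 and miR-877). A read covers a whole mature miRNA, so counts need no scaling by length, but miRNAs can differ in how well they ligate to adapters, and a difference in level between miRNAs includes that. Of 5 miRNAs taken as markers of epithelium and colon, all 5 were in the table. Their summed level was 68.6 to 212 scaled reads with the belt deletion and 102 to 141 with m4. It was 69.9 to 122 with wild type and 46.5 to 59.4 with the empty plasmid. Most of this sum was miR-200c-3p, with a mean of 89.9, 107, 63.7 and 45.4 in the same order of groups. The mean of miR-192-5p was 16.1, 8.42, 26.6 and 2.59, so it was lower with m4 than with wild type. At most 9 reads in any group were counted for miR-141-3p and miR-194-5p, and at most 17 for miR-215-5p. Of 13 markers of other cell types 8 were in the table, with summed levels of 569 to 786, 327 to 628, 479 to 700 and 216 to 292 in the same groups. Not in the table were the blood markers miR-142-3p and miR-223-3p, the neuronal marker miR-124-3p, and the muscle markers miR-133a-3p and miR-208a-3p. The blood markers miR-150-5p and miR-451a were in the table, with at most 4 reads in any group. miR-126-3p, a marker of endothelium, had a mean of 404 with the belt deletion, 149.7 with m4, 393 with wild type and 9.44 with the empty plasmid, so it moved with the cluster. The neuronal marker miR-9-5p had a mean of 72.1, 71.9, 69.1 and 20.2 in the same groups. It was thus lowest with the empty plasmid, but not lower with m4 than with wild type. Other abundant markers of that list did not move with the cluster. miR-122-5p, of liver, had a mean of 45.5, 65.1, 48.9 and 78.8 in the same groups. miR-143-3p, of smooth muscle and fibroblasts, had 185, 171, 112 and 133. The part of other cell types in the results was not tested.

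miR-182-5p was the most abundant member in 11 of 12 libraries and miR-183-5p stood close below it, while miR-96-5p was far lower everywhere. Together the 3 miRNAs made up 1.28% ± 0.190 of the collapsed reads with the belt deletion, 0.494% ± 0.184 with m4, 1.22% ± 0.171 with wild type and 0.0446% ± 0.00784 with the empty plasmid (SD, n = 3 each). These shares are relative to all other miRNAs, many of which also depend on DROSHA.

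hsa-miR-182-5p, the most distal hairpin product, had 1914, 2611 and 1944 scaled reads with the belt deletion, 270.4, 342 and 498 with m4, 2459, 2443 and 1338 with wild type, and 55.7, 38.3 and 31.9 with the empty plasmid. It ranked 13th of all miRNAs in every belt deletion library, 25th to 28th with m4, 16th in every wild-type library and 65th to 92nd with the empty plasmid. The belt deletion and wild-type libraries overlapped, and no other pair of groups did. How many of the other tested miRNAs had groups apart in this way was not counted, so this separation is not particular to the cluster.

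hsa-miR-183-5p, the first hairpin product of the transcript, had 1407, 1825 and 1237 scaled reads with the belt deletion, 229.7, 283 and 412 with m4, 1716, 1637 and 1078 with wild type, and 36.1, 29.9 and 33.2 with the empty plasmid. Its groups stood in the same arrangement as those of miR-182-5p. In the empty-plasmid libraries it was still counted 48, 43 and 50 times, and miR-182-5p 74, 55 and 48 times, so both were detectable there.

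hsa-miR-96-5p, the middle hairpin product, had 72.1, 65.2 and 74.2 scaled reads with the belt deletion, 32.2, 22.2 and 31.99 with m4, and 156, 135 and 62.0 with wild type. In the empty-plasmid libraries it was counted 1, 1 and 0 times, against 82, 52 and 87 reads with the belt deletion, 30, 24 and 25 with m4, and 131, 75 and 55 with wild type. It was thus at the edge of detection with the empty plasmid. The lowest wild-type library lay below all 3 belt deletion libraries, and the other wild-type libraries lay above them. The SD of its level was 41.9% of the mean between wild-type libraries and 6.69% between belt deletion libraries. Wild-type replicate 3 was the lowest wild-type library for all 3 members. With 52 to 87 reads per belt deletion library, an SD of 6.69% is no larger than counting error, so it does not show a steadier level.

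**Figure D1:**
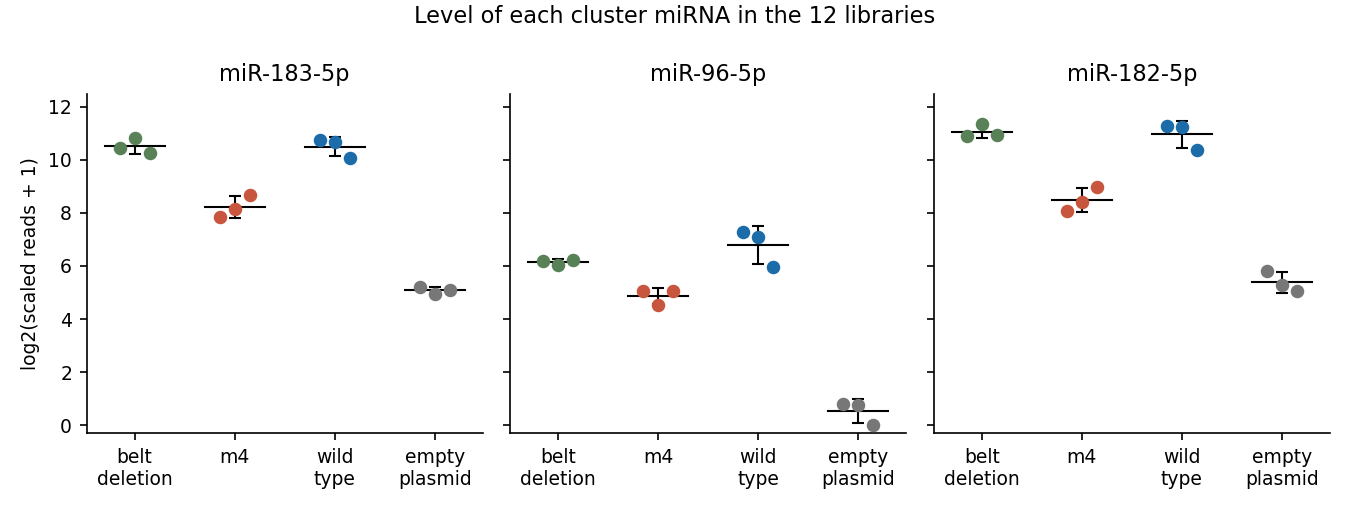
Level of each cluster miRNA, as log2(scaled reads + 1), in the belt deletion, m4, wild-type and empty-plasmid libraries; points are libraries, lines and bars are the mean ± SD over 3 libraries. In each panel m4 lies between the empty plasmid and the other groups, and miR-96-5p is at or near 0 with the empty plasmid.

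How wild-type DROSHA compares with the empty plasmid asks how far the cluster rises once DROSHA is supplied. None of the 12 libraries is labelled as from cells with their own DROSHA, so a return to that level cannot be read. All 3 miRNAs rose, in a fit in which 42.6% of the 310 tested miRNAs were called higher and the median log2 change was 0.72. miR-183-5p averaged 1477 ± 347 scaled reads with wild type and 33.1 ± 3.10 with the empty plasmid (SD, n = 3 each), a log2 change of 5.48 (SE 0.38, edgeR quasi-likelihood test, adjusted p = 1.94e-21). miR-182-5p averaged 2079.9 ± 643 with wild type and 41.9 ± 12.3 with the empty plasmid, a log2 change of 5.63 (SE 0.40, edgeR adjusted p = 2.05e-21). Their changes stood 17th and 13th from the top of the 310. For miR-96-5p the empty plasmid gave 2 reads in all, against 261 with wild type. The ratio of scaled reads was 244, with an exact 95% interval from 66.9 to 2027 that covers counting error only, and the edgeR adjusted p was 1.95e-19. Under 5 other ways of setting the library sizes the log2 changes ran from 4.59 to 5.88 for miR-183-5p, from 4.73 to 6.04 for miR-182-5p and from 6.83 to 7.999 for miR-96-5p, and each passed the test.

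The comparison of m4 with the empty plasmid asks whether the mutant raises any of the cluster. All 3 miRNAs rose here too, where 41.0% of the tested miRNAs were called higher and the median log2 change was 0.83. miR-183-5p averaged 308 ± 93.8 with m4 and 33.1 ± 3.10 with the empty plasmid, 9.28-fold higher (log2 change 3.21, SE 0.35, edgeR adjusted p = 2.3e-12). miR-182-5p averaged 370.0 ± 116 with m4 and 41.9 ± 12.3 with the empty plasmid, 8.81-fold higher (log2 change 3.14, SE 0.36, edgeR adjusted p = 1.06e-11). miR-96-5p had 79 reads with m4 and 2 with the empty plasmid, a ratio of scaled reads of 60.4 with an exact counting interval from 16.2 to 507 (edgeR adjusted p = 3.12e-12). Other library-size settings gave log2 changes of 2.53 to 3.82 for miR-183-5p, 2.44 to 3.74 for miR-182-5p and 5.07 to 6.21 for miR-96-5p, with every call kept.

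The belt deletion was also set against the empty plasmid. The 3 miRNAs rose, where 42.9% of the tested miRNAs were called higher and the median log2 change was 0.73. miR-183-5p averaged 1489 ± 302 with the belt deletion and 33.1 ± 3.10 with the empty plasmid (log2 change 5.49, SE 0.38, edgeR adjusted p = 1.16e-21). miR-182-5p averaged 2156 ± 394 with the belt deletion and 41.9 ± 12.3 with the empty plasmid (log2 change 5.68, SE 0.40, edgeR adjusted p = 1.16e-21). miR-96-5p had 221 reads with the belt deletion and 2 with the empty plasmid, a ratio of scaled reads of 152 with an exact counting interval from 41.6 to 1263 (edgeR adjusted p = 2.6e-17). Other library-size settings gave 4.71 to 5.73, 4.91 to 5.91 and 6.20 to 7.08 on the log2 scale for miR-183-5p, miR-182-5p and miR-96-5p, with every call kept. These 3 comparisons share the empty-plasmid libraries.

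The comparison of m4 with wild type asks whether the mutant falls short. All 3 miRNAs fell with m4, where 34.2% of the tested miRNAs were called lower and the median log2 change was -0.19. miR-182-5p stood at 370.0 ± 116 with m4 and 2079.9 ± 643 with wild type, 5.62-fold lower with m4 (log2 change -2.49, SE 0.34, edgeR adjusted p = 2.79e-09). miR-183-5p stood at 308 ± 93.8 with m4 and 1477 ± 347 with wild type, 4.79-fold lower (-2.26, SE 0.33, edgeR adjusted p = 1.52e-08). miR-96-5p stood at 28.8 ± 5.73 with m4 and 118 ± 49.2 with wild type, 4.08-fold lower (-2.03, SE 0.40, edgeR adjusted p = 1.47e-05). The 3 values lay within 0.46 of each other. With total counts as library sizes the log2 changes shrank to -1.20 for miR-183-5p, -1.41 for miR-182-5p and -0.89 for miR-96-5p, and the call of miR-96-5p ended (edgeR adjusted p = 0.0529).

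The same question for the belt deletion against wild type gave no call for any of the 3 miRNAs, where 12.6% of the tested miRNAs were called in either direction and the median log2 change was 0.04. miR-183-5p averaged 1489 ± 302 with the belt deletion and 1477 ± 347 with wild type, a log2 difference of 0.01 with a 95% interval from -0.61 to 0.64 (edgeR adjusted p = 0.995). miR-182-5p averaged 2156 ± 394 with the belt deletion and 2079.9 ± 643 with wild type, a log2 difference of 0.05 with an interval from -0.59 to 0.69 (edgeR adjusted p = 0.945). miR-96-5p averaged 70.5 ± 4.72 with the belt deletion and 118 ± 49.2 with wild type, a log2 difference of -0.73 with an interval from -1.48 to 0.02 (edgeR unadjusted p = 0.0551, adjusted p = 0.225). Single wild-type libraries moved this difference, to -0.46 without replicate 1 (edgeR adjusted p = 0.545) and to -1.05 without replicate 3 (edgeR adjusted p = 0.0747).

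Against m4, the belt deletion had higher levels of all 3 miRNAs, where 25.8% of the tested miRNAs were called higher and the median log2 change was 0.14. miR-182-5p averaged 2156 ± 394 with the belt deletion and 370.0 ± 116 with m4, 5.83-fold higher (log2 change 2.54, SE 0.34, edgeR adjusted p = 2.26e-09). miR-183-5p averaged 1489 ± 302 with the belt deletion and 308 ± 93.8 with m4, 4.83-fold higher (2.27, SE 0.33, edgeR adjusted p = 2.09e-08). miR-96-5p averaged 70.5 ± 4.72 with the belt deletion and 28.8 ± 5.73 with m4, 2.46-fold higher (1.30, SE 0.39, edgeR adjusted p = 0.00668). This last call ended without m4 replicate 2 (1.11, adjusted p = 0.0551), with total counts (0.25, adjusted p = 0.613) and with library sizes from the summed reference (0.87, adjusted p = 0.269), while the calls of miR-183-5p and miR-182-5p held under every alternative run.

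**Figure D2:**
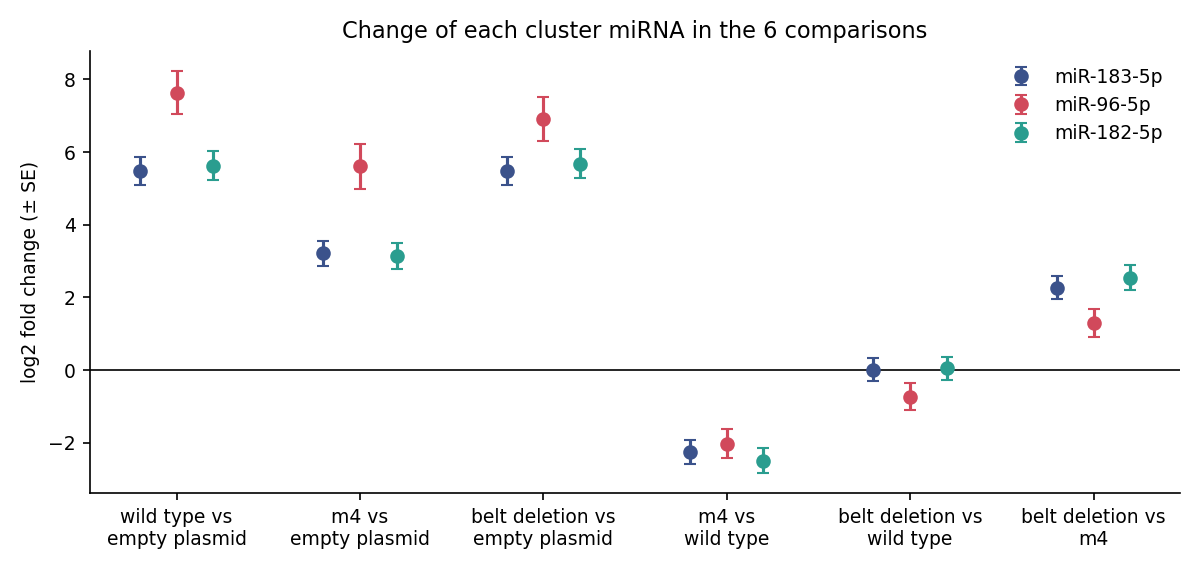
Fitted log2 fold change ± SE of miR-183-5p, miR-96-5p and miR-182-5p in the 6 comparisons, from 1 edgeR fit of 12 libraries; values above 0 are higher in the group named first. miR-183-5p and miR-182-5p lie close together in all 6 comparisons, and miR-96-5p lies apart from them in 5, while for m4 against wild type the 3 lie within 0.46; its fitted values against the empty plasmid rest on 2 reads.

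Ratios between the members compare hairpins of the same transcript within a library and need no library size. The amount of miR-96-5p relative to miR-182-5p differed among the groups, while that of miR-183-5p relative to miR-182-5p did not differ detectably. For each 100 reads of miR-182-5p there were 3.77, 2.50 and 3.82 reads of miR-96-5p with the belt deletion, 11.9, 6.49 and 6.43 with m4, 6.33, 5.52 and 4.63 with wild type, and 1.35, 1.82 and 0 with the empty plasmid. The groups with a DROSHA plasmid did not overlap, with m4 highest and the belt deletion lowest. Between m4 and wild type the gap was narrow, 6.43 against 6.33. The m4 values of 6.49 and 6.43 rest on 24 and 25 reads of miR-96-5p, so counting error can close that gap. An exact permutation test over all 369600 assignments of the libraries to 4 groups gave p = 0.00026 (0.000779 adjusted over 3 ratios). Since the empty-plasmid values rest on 2 reads, the test was repeated without that group, an alternative added after the values were seen, and gave p = 0.00357, the smallest possible there (exact permutation over 1680 assignments, 0.0107 adjusted over 3 ratios).

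Pair by pair, the log2 ratio of miR-96-5p to miR-182-5p was -4.91 ± 0.35 with the belt deletion and -4.19 ± 0.22 with wild type (SD, n = 3 each), a difference of -0.72 (two-sided exact permutation p = 0.1). It was -4.91 ± 0.35 with the belt deletion and -3.63 ± 0.51 with m4, a difference of -1.28 (exact permutation p = 0.1). It was -3.63 ± 0.51 with m4 and -4.19 ± 0.22 with wild type, a difference of 0.55 (exact permutation p = 0.1), which became 0.26 without m4 replicate 1, the library with 11.9. A p of 0.1 is the smallest that 3 against 3 libraries can give, and each of these became 0.164 when adjusted over the 18 ratio comparisons. In the 3 groups with a DROSHA plasmid miR-96-5p was counted 24 to 131 times per library, so part of the spread in its ratios is counting error. The m4 libraries with the fewest collapsed reads, replicates 1 and 3, had ratios of 11.9 and 6.43, and the part of depth was not tested.

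miR-183-5p and miR-182-5p, at opposite ends of the cluster, kept a more even ratio than miR-96-5p and either of them. For each 100 reads of miR-182-5p there were 73.5, 69.9 and 63.7 reads of miR-183-5p with the belt deletion, 84.9, 82.7 and 82.8 with m4, 69.8, 67.0 and 80.6 with wild type, and 64.9, 78.2 and 104 with the empty plasmid. The 4 groups were not told apart (exact permutation p = 0.299), though the m4 libraries were closest to one another and lay above all belt deletion and wild-type libraries. Without the empty-plasmid group the exact permutation p was 0.0536 (0.0536 adjusted over 3 ratios). The log2 ratio was -0.26 ± 0.02 with m4 and -0.47 ± 0.14 with wild type, a difference of 0.21 (exact permutation p = 0.1). The ratio of miR-96-5p to miR-183-5p, whose hairpins are neighbours, differed among the 4 groups (exact permutation p = 0.00123, 0.00185 adjusted over 3 ratios), but without the empty-plasmid group the exact permutation p of 0.0464 became 0.0536 after adjustment. Per 100 reads of miR-183-5p there were 4.90 ± 1.23 reads of miR-96-5p with the belt deletion, 9.88 ± 3.59 with m4, 7.69 ± 1.73 with wild type and 1.47 ± 1.28 with the empty plasmid (SD, n = 3 each).

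**Figure D3:**
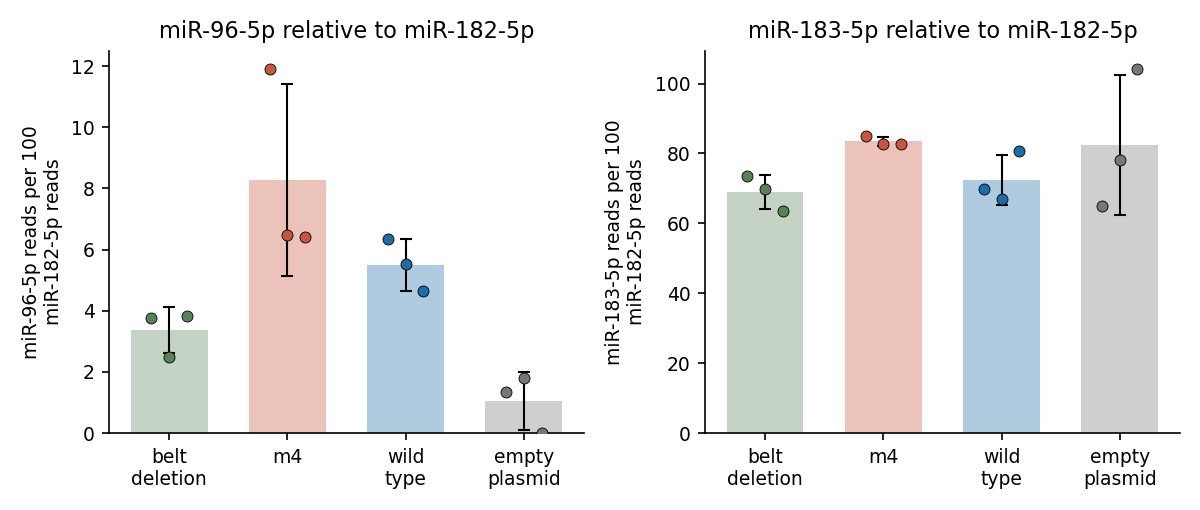
Reads of miR-96-5p (left) and of miR-183-5p (right) per 100 reads of miR-182-5p in the belt deletion, m4, wild-type and empty-plasmid libraries; bars and error bars are the mean ± SD over 3 libraries, points are libraries. On the left the m4 libraries lie highest, from 6.43 to 11.9, and the belt deletion libraries lie lowest among the groups with a DROSHA plasmid, from 2.50 to 3.82; on the right the groups lie closer together.

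The 5p arm made up nearly all reads of each hairpin. miR-183-3p had 16 reads in the 12 libraries together, miR-182-3p had 12 and miR-96-3p had 3. In the belt deletion libraries 11 of 4515 mir-183 reads were from the 3p arm, a share of 0.244% (exact 95% interval 0.122 to 0.436, counting error only). In m4 libraries it was 4 of 846 reads, or 0.473% (0.129 to 1.21), and in wild-type libraries 1 of 3311, or 0.0302% (0.000765 to 0.168). No 3p read of mir-183 was counted among 141 with the empty plasmid (exact 95% interval up to 2.58%). For mir-182 the 3p share was 0.107% (0.0430 to 0.220) with the belt deletion and 0.108% (0.0352 to 0.252) with wild type. With m4 no 3p read of mir-182 was counted among 1011 (exact 95% interval up to 0.364%). By library, miR-183-3p was counted 3, 3 and 5 times with the belt deletion, 0, 1 and 3 times with m4, and 0, 0 and 1 times with wild type. Its share ran from 0.187% to 0.344% in the belt deletion libraries and from 0 to 0.923% in the m4 libraries. In the wild-type libraries it ran from 0 to 0.104%, where 0.104% is 1 read of 958. With at most 5 reads in any library, these shares are too thin to compare the groups. No test of arm use was run; with 3 against 3 libraries an exact permutation test could not give a p under 0.1.

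Among all tested miRNAs, those with the most similar course over the 12 libraries were taken from 68 candidates with a mean of at least 100 scaled reads, by Pearson's r of log2(scaled reads + 1). For miR-183-5p they were miR-10a-5p (r = 0.999), let-7b-5p (0.990) and let-7a-5p (0.988). For miR-182-5p they were miR-10a-5p (0.998), let-7b-5p (0.991) and miR-10b-5p (0.991). For miR-96-5p they were miR-126-3p (0.988), miR-101-3p (0.983) and let-7a-5p (0.981). Within the cluster r was 0.997 between miR-183-5p and miR-182-5p, 0.973 between miR-183-5p and miR-96-5p, and 0.970 between miR-96-5p and miR-182-5p. All these values share the libraries and their size factors, and rest largely on the step between the empty plasmid and the other groups.

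The miRNA nearest to miR-183-5p and miR-182-5p in its course, miR-10a-5p, whose gene lies among the HOXB genes on another chromosome, averaged 5430 ± 1162 scaled reads with the belt deletion, 817 ± 220 with m4, 6219 ± 2201 with wild type and 68.1 ± 5.81 with the empty plasmid. miR-101-3p, near miR-96-5p in its course, averaged 210.3 ± 51.6 with the belt deletion, 82.2 ± 21.1 with m4, 331 ± 150 with wild type and 7.78 ± 3.93 with the empty plasmid. Like miR-96-5p, miR-101-3p was lower with the belt deletion than with wild type without a call (log2 change -0.65, edgeR adjusted p = 0.245). The miRNA nearest to miR-96-5p, miR-126-3p, showed no such difference (log2 change 0.04, edgeR adjusted p = 0.958). let-7a-5p, also near miR-96-5p, had a log2 change of -0.30 (edgeR adjusted p = 0.572).

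**Figure D4:**
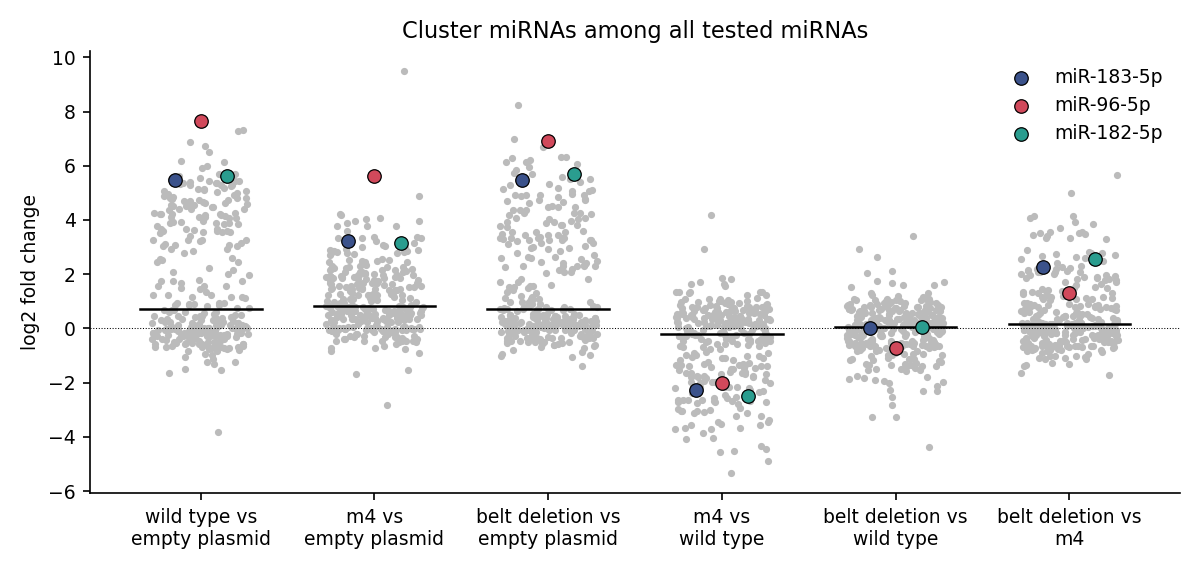
Fitted log2 fold changes of all 310 tested miRNAs (grey points) in the 6 comparisons, with the median as a black line and the 3 cluster miRNAs in colour; horizontal spread within a comparison is only for display. The cluster miRNAs lie in the upper part against the empty plasmid, below the median for m4 against wild type, and miR-183-5p and miR-182-5p lie near the median of 0.04 for belt deletion against wild type.

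Other polycistronic clusters gave a scale for how far hairpins of 1 transcript diverged. Of 9 such clusters listed, 7 had at least 2 tested members. For m4 against wild type the changes of the miR-183 cluster spanned 0.46 on the log2 scale, against spans of 0.41 to 2.53 (median 1.06) in the 7 clusters. The widest of these was between miR-221-3p (-3.87) and miR-222-3p (-1.33). For belt deletion against wild type the span was 0.78, against 0.12 to 2.61 (median 0.99), and the widest was between miR-23b-3p (-1.53) and miR-27b-3p (1.08). For belt deletion against m4 it was 1.25, against 0.32 to 1.87 (median 0.60). Against the empty plasmid the span was 2.16 for wild type, above the 0.31 to 2.01 of the 7 clusters (median 0.77). It was 2.47 for m4, above their 0.45 to 1.93 (median 1.17), and 1.42 for the belt deletion, within their 0.18 to 2.92 (median 1.24). In these 3 comparisons the upper end was miR-96-5p, whose fitted change rests on 2 reads with the empty plasmid and depends on the prior count of the fit. The spans are descriptions of these libraries, without a test, and clusters with more members can span more.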

How the data were processed

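The deposited table holds raw counts of reads, 1 line for each mature miRNA of each hairpin, without normalisation, as its whole numbers and unequal column totals (132667 to 407461) show. Cutadapt, Bowtie2 and hg38 were used, per the submitters' processing notes; the counter, annotation and treatment of multiply mapping reads are not given in the sources used here. Per the labels' protocols, RNA of 19 to 24 nt was cut from a 15% gel, starting from 10 µg of total RNA. Blank cells (42.7%) were read as 0. Lines of 1 mature name were reduced to the one with the highest count, and 9 pairs of names whose counts differed by at most 5 reads or 5% in every library were merged; none involves the cluster.

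Size factors were median ratios over DROSHA-independent features that had 20 reads or more in each library. These 5 features moved among themselves, from -0.67 to 0.76 on the log2 scale over the 6 comparisons. edgeR 4.0.16 (R 4.3.3; filterByExpr, robust quasi-likelihood F test, 1 fit of 12 libraries, Benjamini-Hochberg adjustment over 310 miRNAs, call at 0.05) gave changes; SE is the size of the log2 change over the root of the F statistic, and intervals use its t quantile. Member ratios used 0.5 added reads and exact permutation tests (SciPy 1.17.1). Counting intervals and limits for 0 reads (3 reads of the total) cover counting error only. The named miRNAs are the members, their 3p arms, miR-1271-5p and, for each member, the 3 miRNAs most correlated with it. miRNAs named at the ends of other clusters' spans, and among the markers, were picked once their values had been seen. The members and lists were chosen with earlier results of these data known. Alternatives were other library sizes, DESeq2 1.42.0, no filter, summed hairpin copies, fits of 2 groups, a replicate block, other pseudocounts and leaving out each library.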

Additional observations from a re-analysis of the deposited data

How the results depend on the processing

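Of 288 alternative values for the members' changes 277 kept their direction and side of the threshold. For the ratio tests over groups, 47 of 48 values kept their side of 0.05 by unadjusted exact permutation p. Among these 47 was the ratio of miR-96-5p to miR-183-5p without the empty-plasmid group. Its exact permutation p of 0.0464 became 0.0536 after adjustment. Of 162 for ratios between 2 groups 159 kept their direction; these cannot pass 0.05 with so few libraries, so their p-values say nothing about stability. miR-96-5p lost its call with total counts in m4 against wild type (-0.89) and in belt deletion against m4 (0.25), and in the second also with the summed reference (0.87); leaving out 1 library gave 1.11 to 1.41 there. The uncalled difference between belt deletion and wild type turned to -0.15 for miR-183-5p and -0.12 for miR-182-5p with the summed reference, and to -0.019 for miR-183-5p with the reference without miR-320. Without 1 library it ran from -0.18 to 0.14 for miR-183-5p and from -0.19 to 0.20 for miR-182-5p, and that of miR-96-5p from -1.05 to -0.46. Without 1 library the log2 ratio of miR-183-5p to miR-182-5p, also uncalled, ran from -0.32 to 0.016 for wild type against empty plasmid, from -0.11 to 0.22 for m4 against empty plasmid, and from -0.12 to 0.011 for belt deletion against wild type. Its F statistic over 4 groups ran from 0.87 to 3.98 (exact permutation p 0.487 to 0.0437, the lowest without empty plasmid replicate 1). The number of miRNAs called was 218 under TMM against 134 for wild type against empty plasmid, and under total counts 193 against 117 when m4 was set against wild type and 168 against 84 when the belt deletion was set against m4. These other scalings also changed the split of calls: TMM gave 125 higher and 93 lower, against 132 and 2, for wild type over empty plasmid, 84 and 19, against 127 and 3, for m4 over empty plasmid, 114 and 42, against 133 and 1, for belt deletion over empty plasmid, and 26 and 29, against 10 and 29, for belt deletion over wild type. Total counts gave 133 higher and 60 lower, against 11 and 106, for m4 over wild type, and 47 and 121, against 80 and 4, for belt deletion over m4. TMM, DESeq2 size factors and total counts moved the median of all miRNAs by -0.86, -0.66 and -0.82 for wild type against empty plasmid; total counts moved it by 1.05 when m4 was set against wild type and by -1.002 when the belt deletion was set against m4. The cause of these shifts was not tested.

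Libraries share repeat numbers, but their deviations from group means correlated only between -0.25 and 0.13 with those of the same number, and in no comparison did more than 2 of 3 libraries correlate best with their own number, so the numbers were not taken as pairs. With the replicate block all 27 results that could pass the threshold or were counts of calls kept direction and side or stayed within 1.5 times, with log2 changes such as 5.47 for miR-183-5p in wild type against empty plasmid and 134 miRNAs called there, and an exact permutation p of 0.00347 for miR-96-5p to miR-182-5p over 4 groups; between 2 groups in 3 blocks, no p under 0.25 can occur. Depth limits miR-96-5p most, with 2 reads in the empty-plasmid libraries together.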
